A study of Mus musculus with 9 samples.

Results

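The constant genes of the immunoglobulin heavy chain decide which class of antibody a B cell makes. The 8 genes *Ighm*, *Ighd*, *Ighg3*, *Ighg1*, *Ighg2b*, *Ighg2c*, *Ighe* and *Igha* were taken by symbol from the authors' expression table, which lists 55322 genes, and all 8 were found. They were followed in 9 RNA-sequencing libraries from wild-type C57BL/6 mice, 3 in each group. CD11b+ B cells and CD11b- B cells came from the BM (bone marrow) 48 h after an intraperitoneal injection of LPS (bacterial lipopolysaccharide) at 5 mg/kg, and PMs (peritoneal macrophages, sorted as CD11b+F4/80+) came from naive mice that received nothing. CD11b is an integrin subunit best known from myeloid cells, and the main comparison asks how B cells that carry it differ from those that do not. No library of naive B cells was analysed here, so none of the comparisons measures a response to LPS, and tissue and treatment cannot be told apart in a comparison with PMs. The BM cells were first depleted of cells carrying CD3, CD4, CD8, Gr-1, NK1.1 or TER119 and then sorted. The study gated mature B cells by surface IgM elsewhere, but its methods do not say whether IgM was part of the sort for RNA. Neither the labels nor the methods say whether each library came from a separate mouse or from pooled mice. The study used standard deviations for biological and standard errors for technical replicates, and its FPKM plots carry standard deviations. The p-values below measure the spread between these libraries.

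A naive mature B cell transcribes *Ighm* and *Ighd* as parts of a single long RNA and splices its variable exon to either of them, so that IgM and IgD stand on the same cell. In class switching, DNA breaks arise in repeated switch regions in front of the constant genes, DNA repair joins a pair of these regions, and the variable exon comes to lie beside a gene for IgG, IgE or IgA. Before this, the target gene is transcribed from its own promoter into a germline transcript that codes for no antibody. Reads summed over a gene count germline and switched transcripts together, and likewise the membrane and secreted forms. In B cells cultured with LPS, *Ighg3* and *Ighg2b* are the usual targets, interferon-γ favours IgG2a or IgG2c, interleukin-4 favours *Ighg1* and *Ighe*, and TGF-β favours *Ighg2b* and *Igha*. C57BL/6 mice carry *Ighg2c* in the place of the *Ighg2a* gene of other strains.

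In GRCm38, as annotated in GENCODE M21, the genes lie on the minus strand of chromosome 12 and follow each other in the order of transcription from *Ighm* (chr12:113418558-113422730) and *Ighd* (chr12:113406604-113416324) to *Ighg3* (chr12:113356224-113361232), *Ighg1* (chr12:113325240-113330523), *Ighg2b* (chr12:113302965-113307933), *Ighg2c* (chr12:113285325-113288932), *Ighe* (chr12:113269260-113273248) and *Igha* (chr12:113254830-113260236). The IgG genes resemble each other, and the values below rest on reads being told apart. The hinge, which links the antigen-binding arms of an IgG to its stem and holds the cysteines that join both heavy chains, is coded by exon 2 and is where these genes differ most plainly to the eye. The hinge exons are therefore printed 5′ to 3′ on the coding strand, with in-frame cysteine codons in capitals.
Ighg3, chr12:113360529-113360576: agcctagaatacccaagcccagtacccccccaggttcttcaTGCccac
Ighg1, chr12:113329844-113329882: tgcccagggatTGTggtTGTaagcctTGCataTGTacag
Ighg2b, chr12:113307261-113307326: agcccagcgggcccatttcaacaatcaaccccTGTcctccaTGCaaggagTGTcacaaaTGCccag
Ighg2c, chr12:113288263-113288325: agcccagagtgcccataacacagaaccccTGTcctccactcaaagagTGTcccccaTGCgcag
The hinge exon runs from 39 bases in *Ighg1* to 66 in *Ighg2b*, with 1 cysteine codon in *Ighg3*, 3 in *Ighg2c* and 4 in *Ighg1* and *Ighg2b*. Over the whole transcript of the form with the fewest exons, *Ighg2b* and *Ighg2c* were the closest pair, with 86.2% identity and a longest shared run of 78 bases. The longest run shared by any pair was 88 bases, between *Ighg2b* and *Ighg3*. Each read of a pair was up to 150 bases long, and 100% of the 150-base windows of each of the 8 genes occurred in no other gene's annotated transcripts. Among the 8 genes this follows from the longest shared run of 88 bases. Only exact matches of full length were compared, so reads trimmed shorter are not covered. No other gene in the authors' table overlapped any of the 8.

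The values are FPKM, reads on a gene scaled by its exon length and by the total of the library, so that levels are compared between genes per length. The exon length in the authors' table is 1326 bases for *Ighg2c*, whose last annotated membrane exon has 84 bases, and 2512 to 2678 for the other IgG genes, so a comparison of *Ighg2c* with them depends on the annotation. The libraries held 18014658 to 35251215 reads on genes. The 8 constant genes held a median of 1.24% of all reads in CD11b- and 1.51% in CD11b+ B cells. In each sorted B cell population, 15 of 15 B cell genes were higher than in PMs with an adjusted p under 0.05 by limma. Of all genes tested, 21.5% were in CD11b+ and 25.8% in CD11b- B cells. This does not measure how pure either sort was, and markers of other cells are given below. Within each B cell group 1 library stood apart, and both were numbered 3. CD11b- replicate 3 had a summed level of 202 FPKM for 8 genes of B cell precursors, against 6.40 and 7.45 in the other CD11b- libraries, and CD11b+ replicate 3 had 50.9 against 6.25 and 7.73. None of these 8 genes passed between the B cell groups by limma, before adjustment either, and edgeR on all whole reads called 7 as lower in CD11b+ B cells (0.414% of all genes tested there) while edgeR and DESeq2 on the authors' second table called none of the 2 genes tested there.

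*Ighm* was by far the most abundant of the 8 genes in every library. It measured 5667, 5073 and 6887 FPKM in the CD11b- libraries (replicates 1, 2 and 3) and 7108, 6409 and 9278 FPKM in the CD11b+ libraries. The groups overlapped, since the highest CD11b- library lay above the lowest CD11b+ library. The mean was 5876 ± 925 FPKM in CD11b- and 7598 ± 1496 FPKM in CD11b+ B cells (SD, n = 3 each), a log2 fold change of 0.36 ± 0.40 (SE) on the log2(FPKM + 1) scale (adjusted p = 0.750 by limma). *Ighd*, the partner of *Ighm* on naive cells, was at 882, 1076 and 1032 FPKM in CD11b- and at 772, 781 and 1399 FPKM in CD11b+ B cells. Its CD11b+ libraries lay on either side of all the CD11b- libraries, and its log2 fold change was -0.07 ± 0.28 (adjusted p = 0.941 by limma). The sign of that value turned when CD11b+ replicate 1 (0.07) or 2 (0.07) was left out.

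**Figure D1:**
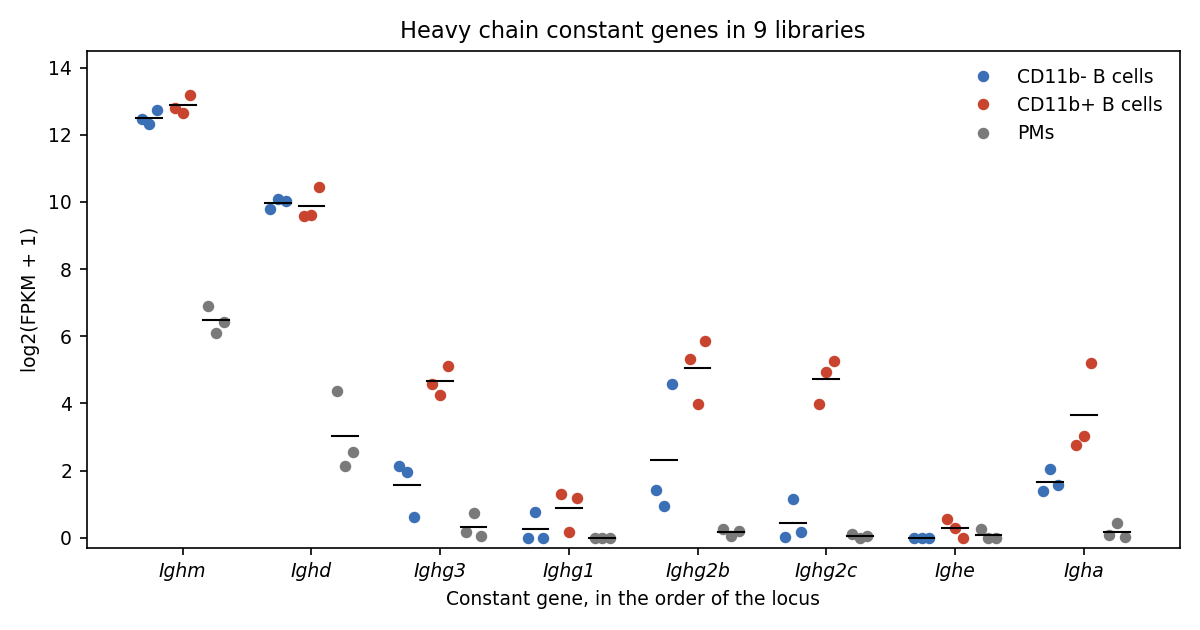
Level of each constant gene as log2(FPKM + 1), for CD11b- B cells (blue), CD11b+ B cells (red) and PMs (grey), with genes in the order of the locus. Each point is a library, in the order of replicates 1 to 3 from left to right, and the line is the mean of 3. *Ighm* and *Ighd* overlap between the B cell groups, whereas all 3 CD11b+ libraries lie above all 3 CD11b- libraries for *Ighg3*, *Ighg2c* and *Igha*.

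Between the B cell groups, 1 of the 8 genes passed, and it lies downstream of *Ighd*. *Ighg2c*, the counterpart of *Ighg2a* in this strain, measured 0.0226, 1.21 and 0.118 FPKM in the CD11b- libraries (62 reads in all) and 14.9, 29.6 and 37.1 FPKM in the CD11b+ libraries. Every CD11b+ library lay at least an order of magnitude above every CD11b- library. The ratio of the mean levels was 60.4, and the log2 fold change was 4.28 ± 0.41 (adjusted p = 0.0184 by limma), rank 7 of 21778 genes by fold change and by p. It was the only 1 of the 8 genes to pass the threshold of 0.05 in this comparison, in which 0.0689% of all genes tested passed upwards and 0% downwards. Because the low CD11b- mean rests mostly on replicate 2, the ratio was 388 without that library. The adjusted p of *Ighg2c* was above 0.05 when CD11b- replicate 1 (0.0970), CD11b- replicate 3 (0.0732) or CD11b+ replicate 2 (0.123) was left out, with log2 fold changes of 4.07, 4.14 and 4.17. By limma it was also above 0.05 with no filter on FPKM (0.164) and with a pseudocount of 0.01 (0.0716). In these bulk samples fewer cells of a kind and less RNA per cell cannot be told apart, so the values do not say how many cells carried *Ighg2c* transcripts.

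*Ighg3*, the first IgG gene of the locus, measured 3.41, 2.85 and 0.546 FPKM in CD11b- and 22.9, 18.2 and 34.0 FPKM in CD11b+ B cells. All CD11b+ libraries were above all CD11b- libraries. The ratio of the means was 11.0 and the log2 fold change 3.09 ± 0.41, with an adjusted p of 0.0721 by limma, above the threshold. With genes under a mean of 1 FPKM left out of the fit the adjusted p was 0.0321, and with all 9 libraries in a single fit it was 0.0241. It was 0.367 with no filter and 0.0645 to 0.238 with a library left out.

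*Ighg2b* had the highest mean of the switched genes in both B cell groups, but in CD11b- B cells only through replicate 3, without which its mean of 1.28 FPKM lay below those of *Ighg3* (3.13) and *Igha* (2.36). *Ighg2b* measured 1.66, 0.910 and 22.9 FPKM in CD11b- and 38.7, 15.0 and 56.7 FPKM in CD11b+ B cells. The groups overlapped through a single library, CD11b- replicate 3, which held 1964 reads on *Ighg2b*, against 148 and 85 in the other CD11b- libraries. The ratio of the means was 4.34 with that library and 28.7 without it. The log2 fold change was 2.75 ± 0.91 (adjusted p = 0.546 by limma), and without that library it was 3.88 (adjusted p = 0.127).

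*Igha*, the last gene of the locus and the source of the antibody of mucosal surfaces, measured 1.61, 3.10 and 1.99 FPKM in CD11b- and 5.76, 7.16 and 35.9 FPKM in CD11b+ B cells. The groups did not overlap, but CD11b+ replicate 3 stood far above the others. The ratio of the means was 7.28, and 2.89 without that library. The log2 fold change was 1.997 ± 0.59 (adjusted p = 0.482 by limma).

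*Ighg1* and *Ighe* had the fewest reads of the 8 genes in CD11b+ B cells. *Ighg1* had 0, 64 and 0 reads in CD11b- and 111, 9 and 118 reads in CD11b+ B cells, which is at most 1.46 FPKM in any library. The groups overlapped, and its log2 fold change was 0.63 ± 0.35 (adjusted p = 0.690 by limma). *Ighe* had no read in the CD11b- libraries and 22, 9 and 0 reads in the CD11b+ libraries. CD11b+ replicate 3 was thus level with the CD11b- libraries. The log2 fold change of *Ighe* was 0.28 ± 0.15 (adjusted p = 0.688 by limma).

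Of the 8 genes, 3 (*Ighg2c*, *Ighg3* and *Igha*) were higher in all CD11b+ libraries than in any CD11b- library and none was lower throughout, while 8.63% of all genes tested were higher in this sense and 6.32% lower. Before adjustment, 4 of the 8 had a p under 0.05 upwards (*Ighg2b*, *Ighg2c*, *Ighg3* and *Igha*) and none downwards, against 4.65% and 3.04% of all genes tested. The median log2 fold change of the 8 was 1.32, against 0.03 over all genes. By other tools on whole reads, recovered from the deposited values, more genes of all kinds passed. The authors had kept the genes of their second table by a p-value, so adjusted p-values within that table depend on this choice and its calls are given as a description. The number of the 8 genes that passed was 0 with edgeR on the authors' second table (adjusted p = 0.0533 for *Ighg2c* and 0.0513 for *Ighg3*), 3 with DESeq2 on that table (*Ighg2c*, *Ighg3* and *Igha*) and 4 with edgeR on all genes (also *Ighg2b*), all as higher. Of all genes tested, 0.641%, 3.16% and 1.11% passed upwards with these tools, in the same order. With an exact two-sided permutation test of the FPKM of single genes, the lowest p that 3 against 3 libraries allow is 0.1, and *Ighg2c*, *Ighg3* and *Igha* reached it.

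**Figure D2:**
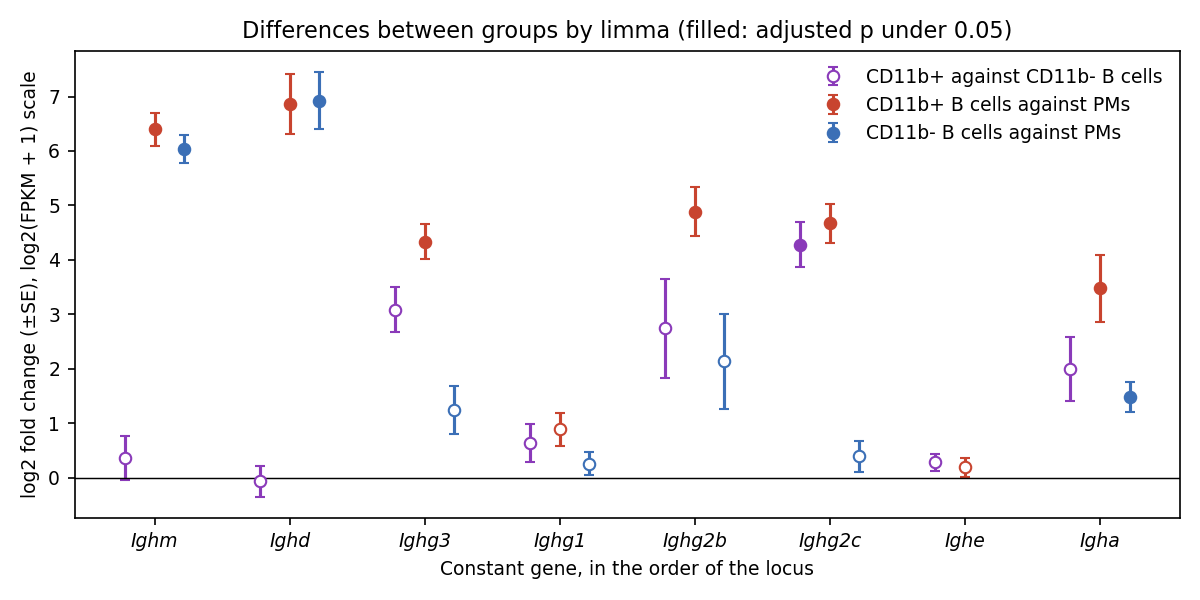
Log2 fold change of each constant gene on the log2(FPKM + 1) scale, with the standard error from limma, for CD11b+ against CD11b- B cells (purple), CD11b+ B cells against PMs (red) and CD11b- B cells against PMs (blue). Filled circles have an adjusted p under 0.05. Between the B cell groups only *Ighg2c*, at 4.28, is filled, and *Ighm* and *Ighd* lie at 0.36 and -0.07.

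As a share of the summed FPKM of all 8 genes, the 6 switched genes (*Ighg1*, *Ighg2b*, *Ighg2c*, *Ighg3*, *Igha* and *Ighe*) made up 0.102, 0.143 and 0.321% in CD11b- and 1.06, 0.968 and 1.52% in CD11b+ B cells. Every CD11b+ library was above every CD11b- library. The mean share was 0.189 ± 0.117% in CD11b- and 1.18 ± 0.297% in CD11b+ B cells (SD, n = 3 each), a difference of 0.994 percentage points (exact two-sided permutation p = 0.1, the lowest this design allows). Even in CD11b+ B cells, therefore, *Ighm* and *Ighd* held nearly all of the heavy chain transcripts, 87.7 ± 1.90% and 11.1 ± 1.64%. The ratio of *Ighm* to *Ighd* was 6.42, 4.71 and 6.67 in CD11b- and 9.21, 8.21 and 6.63 in CD11b+ B cells. The groups overlapped, with means of 5.94 ± 1.07 and 8.02 ± 1.30 (exact two-sided permutation p = 0.2). The sum of the 8 genes was 6556, 6158 and 7945 FPKM in CD11b- and 7964, 7260 and 10842 FPKM in CD11b+ B cells, again with an overlap (exact two-sided permutation p = 0.2). Left out, CD11b+ replicate 3 took the difference between the mean sums from 1803 to 726 FPKM.

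**Figure D3:**
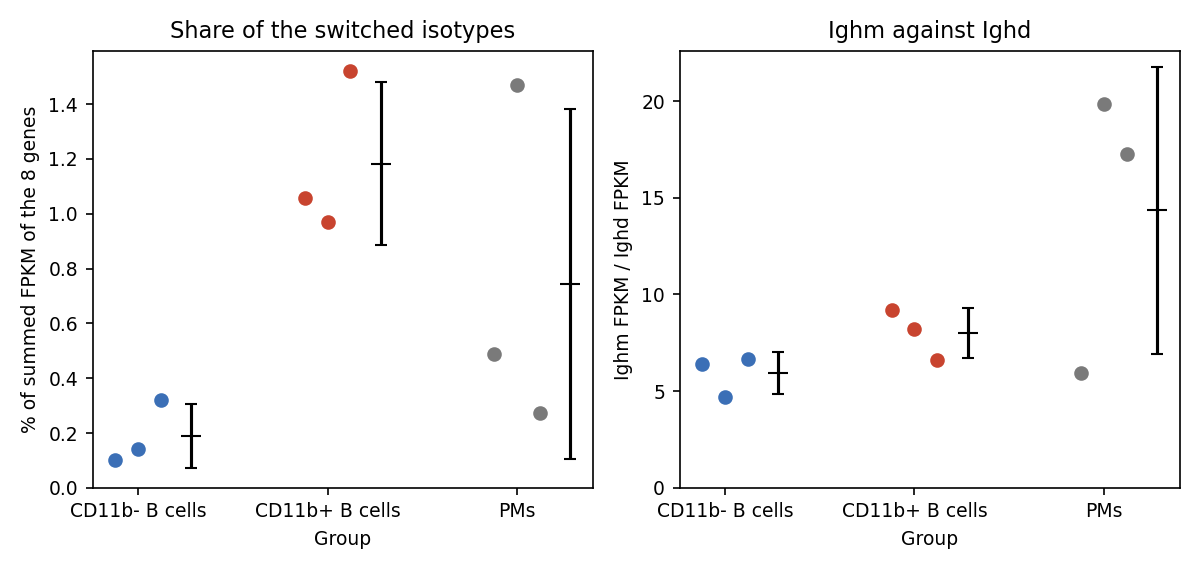
Left, the 6 switched genes as a percentage of the summed FPKM of the 8 constant genes; right, the ratio of *Ighm* to *Ighd* FPKM. Points are libraries and the bars beside them give the mean ± SD of 3. The switched share is 0.102 to 0.321% in CD11b- and 0.968 to 1.52% in CD11b+ B cells, while the ratios of the B cell groups overlap.

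Among the 6 switched genes, a different gene led in each CD11b- library. *Ighg3* held the largest part in CD11b- replicate 1 (50.9%), *Igha* in replicate 2 (35.3%) and *Ighg2b* in replicate 3 (89.6%), from 578, 744 and 2183 reads in all. In the CD11b+ libraries, with 5901, 3792 and 13593 such reads, no gene held more than 46.0%. *Ighg2b* held 46.0, 21.3 and 34.4%, *Ighg2c* 17.7, 42.1 and 22.5%, *Ighg3* 27.2, 25.9 and 20.6%, and *Igha* 6.83, 10.2 and 21.7%. The part of *Ighg2c* was above that of any CD11b- library in each of them, since it was 0.337, 13.8 and 0.461% there. By mean level in CD11b+ B cells the order was *Ighm*, *Ighd*, *Ighg2b*, *Ighg2c*, *Ighg3*, *Igha*, *Ighg1* and *Ighe*. The neighbours from *Ighg2b* to *Igha* overlapped between libraries, as did *Ighg1* and *Ighe*, so that their order is not settled by these data. In reads, which are not divided by length, the 3 CD11b+ libraries together held 9450 on *Ighg2b*, 5899 on *Ighg3*, 4325 on *Igha* and 3343 on *Ighg2c*, and *Ighg2c*, which leads in FPKM in replicate 2, had fewer reads there (1028) than *Ighg3* (1197) or *Ighg2b* (1049). In CD11b- B cells the order was *Ighm*, *Ighd*, *Ighg2b*, *Ighg3*, *Igha*, *Ighg2c*, *Ighg1* and *Ighe*, with overlaps between all neighbours below *Ighd* except *Igha* and *Ighg2c*.

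**Figure D4:**
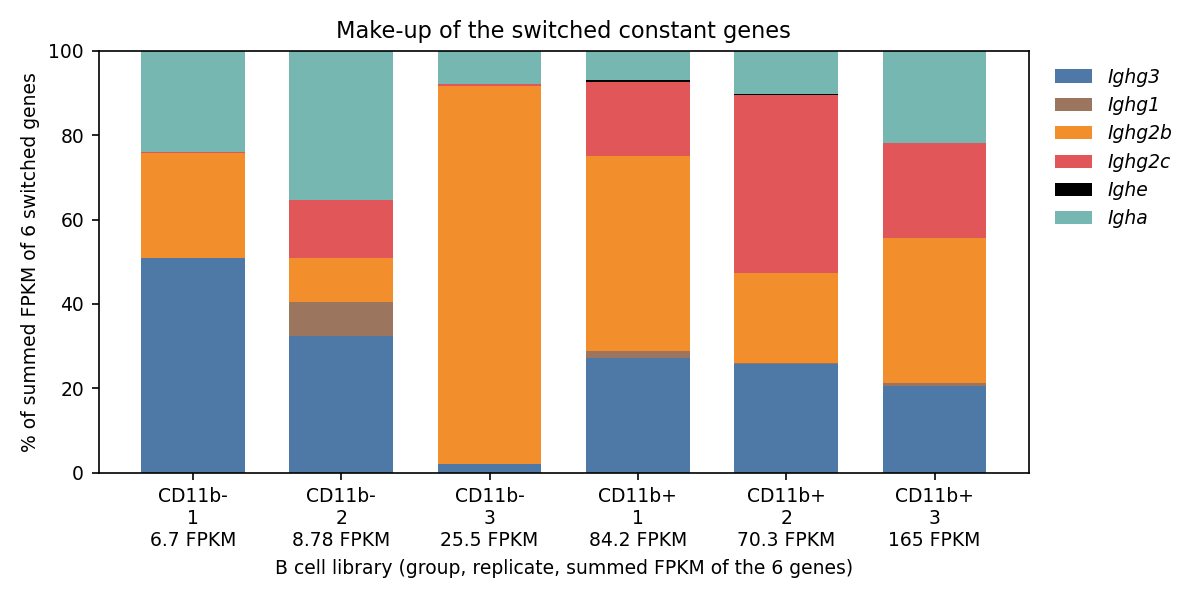
Stacked percentages of the 6 switched constant genes in each B cell library, of their summed FPKM (printed under each bar). *Ighg2c* takes 17.7 to 42.1% in the CD11b+ libraries and 0.337 to 13.8% in the CD11b- libraries, and CD11b- replicate 3 is 89.6% *Ighg2b*.

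PMs belong to a lineage that is not a source of antibody, and the same genes were measured in them. *Ighm* measured 118, 68.0 and 84.6 FPKM and *Ighd* 19.9, 3.42 and 4.90 FPKM in the 3 PM libraries, far under every B cell library. Their means were 1.19% and 0.955% of those in CD11b+ B cells. Genes that mark B cells were at like shares, with *Cd79a*, the signalling partner of surface antibody, at 1.31% and *Igkc*, the κ light chain, at 0.913% of the CD11b+ mean. The switched genes summed to 0.675, 1.07 and 0.243 FPKM in PMs, from 26, 80 and 12 reads, and *Ighg1* had no read in any of them. The share of the switched genes among the 8 was 0.489, 1.47 and 0.271% in PMs, a range that overlapped both B cell groups and rests on these few reads. Where the constant gene reads of the PM libraries came from was not tested.

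Against PMs, 6 of the 8 genes passed as higher in CD11b+ B cells by limma, where 21.5% of all genes tested did, and 7 of 8 did not overlap, against 34.3% of all genes. The log2 fold changes were 6.40 for *Ighm* (adjusted p = 3.98e-06), 6.86 for *Ighd*, 4.89 for *Ighg2b*, 4.67 for *Ighg2c*, 4.33 for *Ighg3* and 3.48 for *Igha* (adjusted p = 0.00402). The CD11b+ mean of *Ighg1* was 55.9 times the limit of 3 reads over the group that was set on its count of 0 in PMs. *Ighg1* had an adjusted p of 0.0595 and *Ighe* of 0.430. In CD11b- B cells 3 of the 7 genes tested passed as higher than in PMs, where 25.8% of all genes tested did, and 4 of them did not overlap, against 36.1%. These were *Ighm* with a log2 fold change of 6.04, *Ighd* with 6.93 and *Igha* with 1.48 (adjusted p = 0.00500), and *Ighg2b* was the other gene without overlap. The values of the IgG genes in this comparison were 2.14 for *Ighg2b* (adjusted p = 0.0950), 1.25 for *Ighg3* (0.0605), 0.39 for *Ighg2c* (0.327) and 0.26 for *Ighg1* (0.375). Both comparisons share the PM libraries, and *Ighe* was too low to be tested in the second.

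Antibody heavy chains need a light chain and, at the surface, the *Cd79a* and *Cd79b* products. Of 9 such partner genes, none passed in CD11b+ against CD11b- B cells by limma or had an unadjusted p under 0.05, and edgeR and DESeq2 on the authors' second table called none. With edgeR on all whole reads *Igkc* passed upwards (1.11% of all genes did). The surrogate light chain genes *Igll1* and *Vpreb1*, and also *Vpreb3*, passed downwards (0.414% did). All 4 were chosen for mention once their values were known. *Igll1*, *Vpreb1* and *Vpreb3* were highest in CD11b- replicate 3, with *Igll1* at 0.0277, 0.0132 and 53.9 FPKM in the CD11b- libraries. *Vpreb3* was abundant in all of these, at 407, 402 and 1188 FPKM. *Igkc* measured 11123, 12312 and 11100 FPKM in CD11b- and 14717, 13629 and 27881 FPKM in CD11b+ B cells, without overlap (log2 fold change 0.63 ± 0.57, adjusted p = 0.727 by limma). CD11b+ replicate 3 was again the highest. *Cd79a* measured 2250, 2473 and 2580 FPKM in CD11b- and 1848, 2097 and 2207 FPKM in CD11b+ B cells. The CD11b+ libraries were the lower here, with a log2 fold change of -0.25 ± 0.25 (adjusted p = 0.729 by limma). The λ genes *Iglc1*, *Iglc2* and *Iglc3* overlapped between the groups, with log2 fold changes of -0.34, 0.32 and 0.26.

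The choice between *Ighm* and *Ighd*, and between membrane and secreted ends, is made in RNA processing. Of 7 genes with a part in it or in heavy chain transcription, none passed between the B cell groups by limma, none had an unadjusted p under 0.05, and edgeR and DESeq2 also called none. *Zfp318*, which is needed for *Ighd* transcripts, measured 4.37, 5.99 and 4.88 FPKM in CD11b- and 4.72, 5.98 and 12.6 FPKM in CD11b+ B cells. It overlapped between the groups and was highest in CD11b+ replicate 3, the library with the highest *Ighd*. Its log2 fold change was 0.43 ± 0.32 (adjusted p = 0.727 by limma). The coactivator gene *Pou2af1* (log2 fold change -0.23), *Hnrnpf* (-0.11) and *Pou2f2* (0.18) were the most abundant of the list.

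The machinery of class switching was transcribed in both B cell groups, and none of its genes passed between them. Of all 35 machinery genes, which cover base excision and mismatch repair, the break response and end joining among other steps, 0 passed by limma. Before adjustment 2 had a p under 0.05 upwards and 2 downwards (4.65% and 3.04% of all genes did), and 4 were higher and 3 lower without overlap (8.63% and 6.32% of all genes). The median log2 fold change was -0.04, against 0.03 over all genes. DESeq2 and edgeR on the authors' second table called none of them, and edgeR on all whole reads called 1, the end-joining gene *Xrcc6*, as lower (0.414% of all genes were). *Xrcc6* measured 25.0, 21.1 and 83.7 FPKM in CD11b- and 24.2, 21.4 and 22.1 FPKM in CD11b+ B cells, and stood out only in CD11b- replicate 3. The most abundant of the list were *Parp1*, a sensor of DNA breaks, at 90.5 ± 7.59 FPKM in CD11b- and 65.0 ± 10.7 in CD11b+ B cells (log2 fold change -0.48, adjusted p = 0.534), *H2afx*, the histone marked at breaks (0.68, adjusted p = 0.644), and *Exosc3* of the RNA exosome (0.28, adjusted p = 0.643; all by limma). Against PMs, 26 of the 35 passed as higher in CD11b+ and 24 in CD11b- B cells, where 21.5% and 25.8% of all genes did.

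Cytokine receptors, coreceptors and transcription factors direct a switch to a given gene. Of 21 such genes, none passed between the B cell groups by limma. Before adjustment 2 had a p under 0.05 upwards and 3 downwards, and 2 were higher and 6 lower without overlap, beside the same all-gene shares. The median log2 fold change of the 21 was -0.25, against 0.03 over all genes, and 7 of the 21 had a positive value. Lower without overlap were *Stat6* (-0.59), *Il4ra* (-0.53), *Ifngr1* (-0.28), *Tgfbr1* (-0.25), *Cd40* (-0.24) and *Tgfbr2*. The most abundant of the 21 were the BAFF receptor gene *Tnfrsf13c* (log2 fold change -0.27), *Tnfrsf13b* (-0.16) and *Il21r* (-0.34), all with overlapping libraries. DESeq2 on the second table called *Tbx21* and *Batf* as higher and *Tgfbr2* as lower (3.16% and 0.714% of all genes). With edgeR on all whole reads *Tbx21* passed upwards and *Tgfbr2* downwards (1.11% and 0.414% of all genes), and edgeR on the second table called none. These 3 genes are given because of those calls, with their values in view. *Tbx21*, which encodes T-bet, a factor that drives the switch to IgG2a or IgG2c, measured 1.14, 0.841 and 0.627 FPKM in CD11b- and 3.28, 3.46 and 3.24 FPKM in CD11b+ B cells. The groups did not overlap and the CD11b+ libraries lay close together, with a log2 fold change of 1.22 ± 0.24 (adjusted p = 0.202 by limma). *Batf*, a factor that acts on germline transcripts, measured 10.5, 11.7 and 11.6 FPKM in CD11b- and 24.7, 26.6 and 16.4 FPKM in CD11b+ B cells (log2 fold change 0.92 ± 0.20, adjusted p = 0.263 by limma). *Tgfbr2*, a receptor for TGF-β, measured 35.2, 32.9 and 38.8 FPKM in CD11b- and 22.1, 25.5 and 20.97 FPKM in CD11b+ B cells. It was lower in every CD11b+ library, with a log2 fold change of -0.62 ± 0.14 (adjusted p = 0.286 by limma).

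Plasma cells hold very large amounts of heavy chain RNA, and 12 of their marker genes were measured beside the constant genes. Their summed level was 134, 135 and 225 FPKM in CD11b- and 341, 302 and 722 FPKM in CD11b+ B cells, without overlap and highest in CD11b+ replicate 3. Without *Jchain* the other 11 summed to 127, 118 and 202 FPKM in CD11b- and 239, 218 and 273 FPKM in CD11b+ B cells, a smaller gap, still without overlap. None was at 0 reads in either group. By limma none of the 12 passed, 6 had an unadjusted p under 0.05 and all 6 were upwards, and 6 were higher without overlap, where 4.65% and 8.63% of all genes were. DESeq2 called 4 (*Derl3*, *Fkbp11*, *Jchain* and *Mzb1*), edgeR called *Fkbp11* on the second table and, on all whole reads, 5 (those 4 and *Tnfrsf17*), all as higher in CD11b+ B cells, against 3.16% of all genes with DESeq2 and 0.641% and 1.11% with edgeR on the second table and on all whole reads. Genes of the second table, which DESeq2 also used, had been kept by a p-value, so calls within it are a description. The median log2 fold change of the 12 was 0.80. *Jchain*, which joins the units of secreted IgM and IgA, measured 6.18, 17.4 and 22.7 FPKM in CD11b- and 101, 83.9 and 449 FPKM in CD11b+ B cells. Its lowest CD11b+ library was above its highest CD11b- library, and the highest of all was CD11b+ replicate 3, as for *Igha* and *Igkc* (log2 fold change 3.43 ± 0.66, adjusted p = 0.204 by limma). *Mzb1*, a chaperone of antibody assembly, measured 15.5, 16.3 and 29.8 FPKM in CD11b- and 59.9, 49.3 and 51.2 FPKM in CD11b+ B cells (log2 fold change 1.39 ± 0.24, adjusted p = 0.140 by limma). *Xbp1*, a factor of the secretory programme, was at 61.0 ± 12.9 and 97.1 ± 5.72 FPKM (log2 fold change 0.68, adjusted p = 0.350 by limma). The other plasma cell regulators and markers *Prdm1* (0.73), *Sdc1* (0.87), *Irf4* (-0.25) and *Slamf7* (-0.23), chosen for mention with their log2 fold changes in view, overlapped between the groups. The part of these genes in the levels of the constant genes was not tested.

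Markers of other cells were measured beside the switched genes as well. Over all genes tested, 8.63% were higher and 6.32% lower without overlap, 4.65% and 3.04% had an unadjusted p under 0.05 upwards and downwards, and the shares called as higher were 0.0689% by limma, 3.16% by DESeq2, and 0.641% and 1.11% by edgeR on the second table and on all whole reads. All 10 neutrophil genes had a positive log2 fold change between CD11b+ and CD11b- B cells, 3 passed by limma (*S100a8*, *S100a9* and *Retnlg*), and the other tools called 8 (edgeR on the second table) or all 10 (DESeq2, and edgeR on all whole reads). Their summed level was 1.74 to 3.01 FPKM in CD11b-, 217 to 1576 FPKM in CD11b+ B cells, with a median of 12.2 FPKM in PMs, and none was at 0 reads in the B cell groups. Within the CD11b+ group it was lowest, at 217 FPKM, in replicate 3, which had the highest summed level of the switched genes (165 FPKM), and highest in replicate 2, which had the lowest (70.3 FPKM). The 9 monocyte and macrophage genes summed to 34.9 to 48.0 FPKM in CD11b- and 84.1 to 283 FPKM in CD11b+ B cells, with 7 of 9 higher without overlap and none passing by limma (7 upwards before adjustment, 6 by DESeq2 and, with edgeR, 1 on the second table and 6 on all whole reads). The 4 genes of B1 cells, which make much of the natural IgM, summed to 7.23 to 9.77 FPKM in CD11b- and 29.3 to 64.3 FPKM in CD11b+ B cells. All 4 were higher without overlap and none passed by limma (3 upwards before adjustment, 2 by DESeq2 and 1 by edgeR on either table), with *Zbtb32* at a log2 fold change of 3.04 (adjusted p = 0.0765), *Spn* at 0.57 (0.650), *Bhlhe41* at 0.75 (0.582) and *Cd5* at 0.17 (0.727). *Zbtb32* carried most of this sum in CD11b+ B cells, with means of 3.44 and 36.0 FPKM, and *Cd5*, a marker of B1a cells, was at 0.364 and 0.530 FPKM. The 15 B cell genes summed to 8308 to 8954 FPKM in CD11b- and 6516 to 7287 FPKM in CD11b+ B cells, with 7 of 15 lower without overlap and 1 of 15 with a positive log2 fold change, and none passed by limma (2 downwards before adjustment, 1 by DESeq2 and by edgeR on all whole reads, 0 by edgeR on the second table). The 6 T cell genes summed to at most 2.21 FPKM and the 5 NK cell genes to at most 5.86 FPKM in any B cell library, with *Cd4* and *Cd8a* and with *Ncr1* and *Gzma* at 0 reads in CD11b- and *Klrb1c* at 0 reads in CD11b+ B cells. The 5 erythroid genes summed to 1.40 to 21.2 FPKM in CD11b- and 27.6 to 39.1 FPKM in CD11b+ B cells. None of the T cell, NK cell and erythroid genes passed by limma (1, 2 and 2 upwards before adjustment), edgeR on the second table called none, DESeq2 called 2, 1 and 0 as higher, and edgeR on all whole reads 2, 1 and 2 as higher and 1 NK cell gene as lower. The part of these cells in the levels of the switched genes was not tested.

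**Figure D5:**
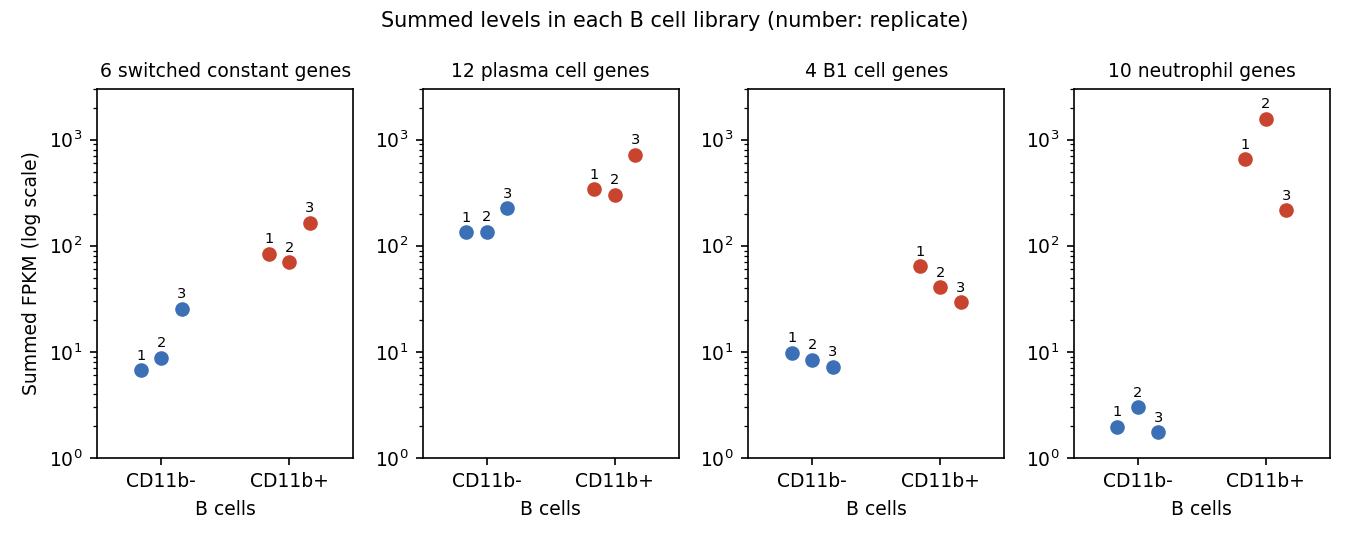
Summed FPKM (log scale) of the 6 switched constant genes and of the plasma cell, B1 cell and neutrophil lists in each B cell library, with the replicate number above each point. All 4 sums are higher in every CD11b+ library, and CD11b+ replicate 3 is the highest for the switched (165 FPKM) and plasma cell genes (722 FPKM). Within the CD11b+ group, the same library is the lowest for the neutrophil genes (217 FPKM) and for the B1 cell sum (29.3 FPKM). The B1 cell sum follows *Zbtb32* (55.7, 32.4 and 19.9 FPKM in CD11b+ replicates 1, 2 and 3), whereas *Cd5*, *Spn* and *Bhlhe41* are highest in replicate 3.

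For the 6 constant genes with a mean of at least 1 FPKM over the B cell libraries, the genes with the most similar pattern were found among 11719 genes by Pearson's r of log2(FPKM + 1) over these 6 libraries, as a description only. With so few libraries, in 2 groups, many genes reach a high r. *Ighm* was nearest to *Eaf2* (r = 0.988), *Cramp1l* and *Ptpre*, and *Ighd* to *Thra* (0.994), *Zdhhc8* and *Mrtfb*. *Eaf2*, a partner of RNA polymerase elongation factors, was also in the plasma cell list. *Ighg2b* was nearest to *Gm32633* (0.989), *Rgcc* and *Bhlha15*, which encodes Mist1, a factor of secretory cells. *Ighg2c* was nearest to *Cd302* (0.997), *Gm9385* and *Ly6k*, *Ighg3* to *Dbi* (0.998), *Rad21* and *Adam6b*, and *Igha* to the ribosomal protein genes *Rpl7a* (0.996) and *Rpsa*.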

How the data were processed

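Per the labels, cDNA was made with a SMART-seq HT kit. The authors trimmed paired reads (Trim Galore 0.4.4, Trimmomatic 0.36, cutadapt 1.16), mapped them to GRCm38 with STAR 2.7.2b and counted them on genes with featureCounts 1.6.1. The strand setting and the handling of multiply mapped reads are not given in the sources used here. The FPKM table that the authors deposited lists 55322 genes. A second deposited table holds a normalized signal for 11063 genes, read counts scaled by size factors, kept by a p-value whose test is not stated; the processing notes name DESeq2 1.20.0. Gene positions in the FPKM table differ by 36380 bases from GENCODE M21 for all 8 genes, so positions and sequences were taken from M21 by gene identifier, and the labels also name GRCm39.

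FPKM times exon length, divided by the step that 1 read is worth in each library, gave whole reads (share 100%, tolerance 0.05 reads), and the second table gave the same reads. The cDNA was amplified without molecular identifiers, and the limit set on a count of 0 (3 reads a group) reflects counting alone. Comparisons used limma 3.58.1 in R 4.3.3 (two-sided, moderated with a mean-variance trend) on log2(FPKM + 1) of the 6 libraries concerned. Genes averaging under 0.05 FPKM there were dropped, p-values were adjusted by Benjamini-Hochberg over every gene kept, and the threshold was 0.05. Single values were compared by exact two-sided permutation tests (scipy 1.17.1). On simulated counts for the B cell comparison (21160 genes tested), limma recovered 52% of 4-fold and 90% of 16-fold changes. Alternatives were edgeR 4.0.16 (quasi-likelihood) and DESeq2 1.42.0 on whole reads, pseudocounts of 0.1 and 0.01, no filter or one at 1 FPKM, all 9 libraries in a single fit, median-ratio scaling, FPKM rescaled after removing immunoglobulin genes, limma with no trend, replicate blocks, and leaving out each library. Replicates differed by more than sampling noise.

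The members and the 13 other lists (139 genes, all matched by symbol or older symbol) were chosen with earlier results of these data known. Named are the 8 constant genes, the genes of a list past the threshold (at most 4) or else its 3 most abundant in B cells, and *Jchain*, *Zfp318*, *Cd79a* and *Igkc*. A few genes that this rule names are not reported here. Other genes, called by edgeR or DESeq2, lower without overlap, used as markers or listed at 0 reads, were picked for mention with their values in view. The genes of similar pattern are the 3 with the highest r for each constant gene, immunoglobulin segments left out.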

Additional observations from a re-analysis of the deposited data

How the results depend on the processing

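Between CD11b+ and CD11b- B cells, 1 constant gene passed (*Ighg2c*). The number was 0 with a pseudocount of 0.01, with no filter on FPKM and with edgeR on the second table, 2 with a mean FPKM of at least 1 and with all 9 libraries in a single fit, 3 with DESeq2, 4 with edgeR on all whole reads (in which the median log2 fold change of all genes moved to 0.27), and 0 to 1 with a library left out. The adjusted p of *Ighg2c* ran from 6.95e-47 (edgeR on all whole reads, with no filter on low counts) to 0.164 over 19 alternatives, of which 13 passed, and its log2 fold change from 4.02 to 7.21, always upwards. *Ighg3*, *Ighg2b* and *Igha* also kept their direction, and passed in 5, 2 and 3 of the 19. *Ighd* ran from -0.355 to 0.0737 with a library left out, and turned upwards without CD11b+ replicate 1 (0.0737) or 2 (0.0653). For CD11b- B cells against PMs, 3 genes passed, and 5 with a pseudocount of 0.1, DESeq2 and edgeR on all whole reads, and 3 to 5 with a library left out. For CD11b+ B cells against PMs, 6 passed, and every alternative stayed within 1.5 times of that. Machinery genes went from 0 to 1 with edgeR on all whole reads, switch signals from 0 to 3 with DESeq2, to 2 with edgeR on all whole reads and to 0 to 1 with a library left out, and plasma cell genes from 0 to 4 with DESeq2, to 1 or 5 with edgeR and to 0 to 1 with a library left out. The cause of these changes was not tested. The switched share, the ratio of *Ighm* to *Ighd* and the summed level kept their direction under every alternative run.

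Libraries with the same number in their titles did not deviate together in every pair (r of 0.287, -0.0170 and 0.209 over 11986 genes), so the numbers were not taken as a pairing. The first and last of these pairs also share a library number in the descriptions (1 and 5), and the pair at -0.0170 does not (3 and 2). With a replicate block by title number 1 constant gene passed, as without it, 1 plasma cell gene (*Derl3*) against 0, and 5 constant genes in CD11b- B cells against PMs. The switched share had p = 0.25 in an exact permutation over the pairs, the lowest it can give. A replicate block by those library numbers, of which the B cell groups share only 2, gave 4 constant genes (*Ighg2c*, *Ighg3* with adjusted p = 0.000238, *Ighg2b* with 0.00536 and *Igha* with 0.0116, by limma) and 4 plasma cell genes and turned *Ighd* to 0.12. Over all genes it gave 98 higher and 29 lower of 21311, against 15 and 0 of 21778 without a block.

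With 3 libraries a group, the self-test recovered 52% of 4-fold changes, so a gene that did not pass is not shown to be equal. *Ighg1* and *Ighe*, with 0 to 118 reads a library, overlapped between the B cell groups, and counting error weighs most on them.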
